A study of Canis lupus familiaris with 25 samples.

Results

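QRFPR and GCGR, 2 peptide hormone receptor genes among the 24532 genes of a canine tumor count table, were examined across hepatoid gland adenoma (HGA), primary apocrine gland anal sac adenocarcinoma (AGASAC) and its lymph node metastases. They were selected on their raw counts in HGA and AGASAC, because both had 0 counts in all 10 HGA and high counts in AGASAC, so their difference between the tumor types is given here as a description, without a test. What the choice did not use, namely their spread within AGASAC, the step from primary tumor to metastasis, sex, and the genes around and downstream of them, was compared and tested.

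The study collected archival formalin-fixed, paraffin-embedded (FFPE) tumors from pet dogs, removed adjacent tissue, and read the 3′ ends of polyadenylated RNA with QuantSeq 3′. HGA (n = 10) came from 5 female dogs (3 neutered, 2 intact) and 5 male dogs (1 neutered, 4 intact) aged 8 to 14 years. Primary AGASAC (n = 11) came from 5 female dogs (3 neutered, 2 intact) and 6 neutered male dogs aged 8 to 12.5 years, and a sublumbal lymph node metastasis was sequenced from 4 of them (2 females, of which 1 was intact, and 2 neutered males). The labels give no treatment for any dog, and DV200, the percentage of RNA fragments over 200 nucleotides, ran from 70.5 to 92.7 in HGA, from 70.2 to 84.4 in primary AGASAC and from 71.8 to 82.9 in metastases. Libraries held 1562347 to 6389555 counts in HGA, 2581453 to 4218340 in primary AGASAC and 2857541 to 3289546 in metastases.

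Both genes encode G protein-coupled receptors for circulating or local peptides. QRFPR is the class A receptor of the RFamide neuropeptide QRFP, couples to calcium mobilization and to inhibition of cAMP formation, and is best known from feeding control in the hypothalamus. GCGR is the class B receptor of glucagon, couples through Gs to cAMP, and is best known from liver, where it drives glucose output, and to a lesser degree from kidney and fat.

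Levels are given in CPM, the counts of a gene scaled to the library total, with TMM scaling over all 25 samples. QuantSeq 3′ reads 1 fragment per transcript, so no division by gene length was made. The summed level of 8 glandular epithelium markers (keratins and EPCAM among them) was 778 to 3121 CPM in HGA, 5492 to 8584 in primary AGASAC and 4787 to 8128 in metastases. The summed level of 7 squamous and sebaceous markers ran the other way, at 5042 to 17668 CPM in HGA against 1.34 to 33.3 in primary AGASAC and 2.39 to 23.3 in metastases, with KRT79 at 0 in all primary AGASAC. Both sums thus differed between the labeled tumor types without overlap. Both lists were chosen with earlier results of these data known, so this describes the samples and is no independent check of their labels.

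QRFPR was read at 0 counts in each HGA and at 407 to 8128 counts in each primary AGASAC. In the primary tumors numbered 1 to 11 its level was 458, 2189, 691, 320, 141, 628, 2030, 1408, 2325, 2653 and 1279 CPM, a mean of 1284 ± 897 (SD, n = 11). In the metastases of dogs 1 to 4 it was 584, 1496, 1323 and 68.4 CPM, a mean of 868 ± 664 (SD, n = 4). No AGASAC sample came near the HGA. The limit that 3 counts set in an HGA library was 0.543 to 1.84 CPM, so the mean of the primary tumors was at least 696-fold higher than HGA, and that of the metastases at least 471-fold higher, against the highest of the 10 per-library limits.

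GCGR showed the same division between tumor types with a narrower range inside AGASAC. It was read at 0 counts in each HGA and at 262 to 1293 counts in each primary tumor. The 11 primary tumors, in the same order, had 299, 336, 295, 349, 228, 390, 401, 288, 371, 297 and 63.7 CPM, a mean of 302 ± 93.9 (SD, n = 11). The 4 metastases had 263, 276, 408 and 384 CPM, a mean of 333 ± 73.8 (SD, n = 4). AGASAC 11 lay below the other 14 AGASAC samples, the lowest of which had 228 CPM. Against the highest HGA limit, primary tumors were at least 164-fold and metastases at least 180-fold higher.

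**Figure D1:**
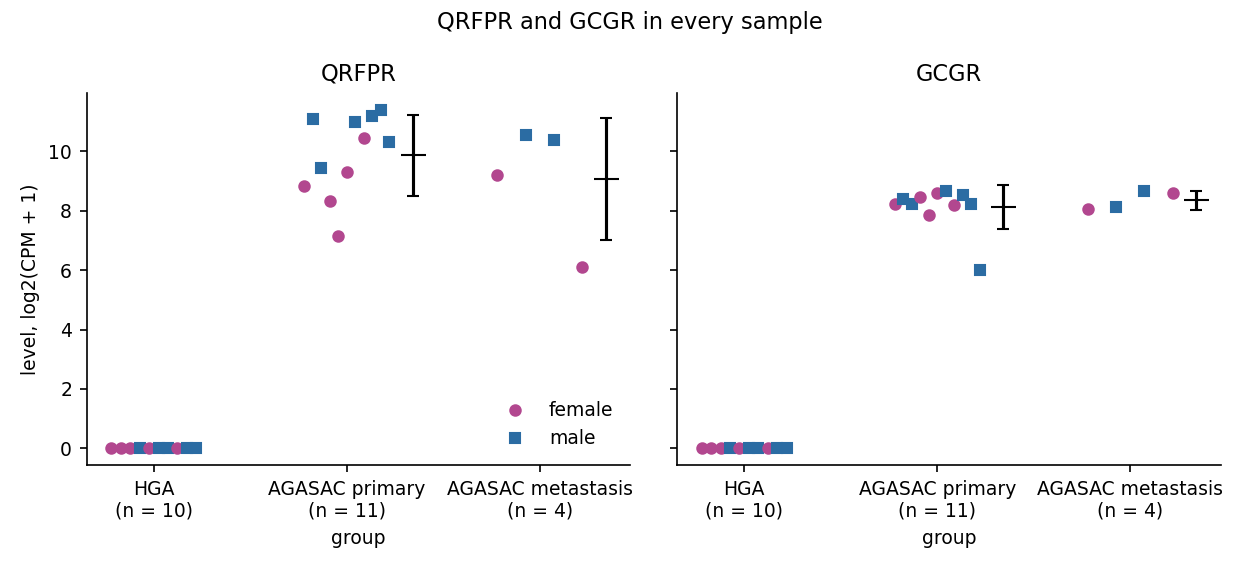
Level of QRFPR (left) and GCGR (right) in every sample on the log2(CPM + 1) scale, by group, with circles for female and squares for male dogs. The bar to the right of each AGASAC group is the mean ± SD on that scale. All 10 HGA sit at 0 for both genes, the AGASAC samples spread from 68.4 to 2653 CPM for QRFPR, and GCGR stays between 228 and 408 CPM outside AGASAC 11 (63.7 CPM).

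A count of 0 in all HGA was not rare by itself, since 2139 of the 24532 genes (8.72%) had it. Only 9 genes (0.0367%) joined 0 counts in all HGA to at least 10 counts in every AGASAC sample, and QRFPR and GCGR were among these by the way they were chosen. HGA lay wholly below primary AGASAC in CPM for 630 genes (2.57%). By mean level in primary AGASAC, QRFPR and GCGR had ranks 1 and 3 of the genes at 0 in all HGA, with LOC608760 between them at 373 ± 342 CPM, and GPR149, an orphan G protein-coupled receptor, at 147 ± 223 CPM and B3GALT2, a galactosyltransferase, at 129 ± 143 CPM next (SD, n = 11 each). Just outside the rule, with at most 1 count in any HGA, stood the polymeric immunoglobulin receptor PIGR at 601 CPM, the simple epithelial keratin KRT8 at 465 CPM and CYP4A11 at 321 CPM (means of primary tumors).

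**Figure D2:**
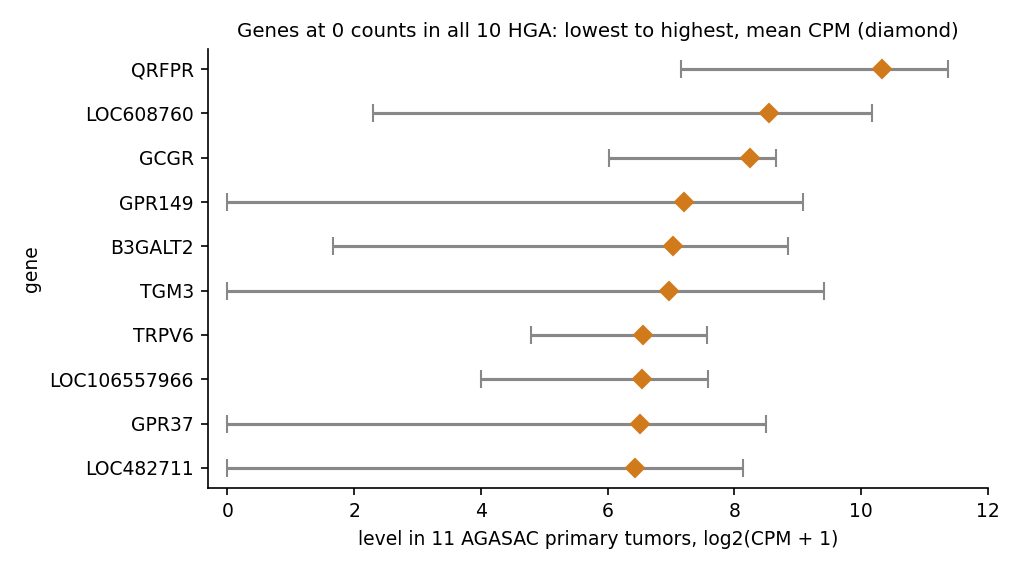
The 10 genes with the highest mean level in 11 primary AGASAC among those with 0 counts in all 10 HGA, with a line from the lowest to the highest tumor and a diamond at the mean CPM, on the log2(CPM + 1) scale. QRFPR lies highest, and GCGR has a short line (63.7 to 401 CPM), whereas GPR149, TGM3, GPR37 and LOC482711 reach down to 0.

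Within primary AGASAC the receptors differed in how much they varied. QRFPR ranked 68 and GCGR 427 of 24532 genes by mean level. The coefficient of variation of QRFPR was 69.9%, while counting alone gave 2.33%, and 88.8% of the 1845 genes with a mean of at least 100 CPM varied less. For GCGR it was 31.1%, close to the median of 29.7% over those genes. No relation between the levels of the receptors was detected across the 11 tumors (Pearson's r = 0.05, permutation p = 0.911, Spearman's rho = 0.21, permutation p = 0.543, and r = 0.05 without the 2 tumors farthest from the median QRFPR). Without AGASAC 11 r was 0.50, with an adjusted permutation p of 0.324.

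QRFPR levels divided in part by the sex of the dog, with lower values in females and a difference that missed the threshold once adjusted. The 5 female primary tumors (AGASAC 1, 4, 5, 6 and 8) had 458, 320, 141, 628 and 1408 CPM, and the 6 male ones (AGASAC 2, 3, 7, 9, 10 and 11) had 2189, 691, 2030, 2325, 2653 and 1279. The groups overlapped through AGASAC 8, an intact female, which exceeded males 3 and 11. On the log2(CPM + 1) scale the mean was 8.82 ± 1.22 (SD, n = 5) in females and 10.73 ± 0.73 (SD, n = 6) in males, a difference of -1.92 (two-sided exact permutation p = 0.0130, Benjamini-Hochberg adjusted p = 0.0519 over 4 tests). Without AGASAC 8 the difference was -2.33 with an adjusted exact p of 0.0190. No other single removal took it past the threshold. Over all single removals the difference ranged from -2.33 to -1.50, with adjusted exact permutation p of 0.0190 to 0.127.

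The mean of females was below that of males in each subset that could be formed, and a fit over all genes did not call QRFPR. Among neutered dogs only, a comparison chosen after seeing the data, 3 females differed from 6 males by -2.30 (exact permutation p = 0.0119, adjusted p = 0.0238 over both receptors). The female-minus-male difference was -3.10 within the 1 RNA extraction batch that held both sexes (batch 8, 2 females, 1 male). It was -1.42 and -1.997 within the 2 series of raw file names in the study's sample list (1 female and 2 males, 3 females and 4 males). Extraction batches 4 and 5 held only male and batches 6 and 7 only female primary tumors. Outside batch 8, sex and extraction batch thus cannot be told apart. The fit over all genes, also added after seeing the data, gave QRFPR a log2FC of -1.66 (SE 0.53, 95% interval -2.80 to -0.52), rank 76 of 12751 genes by p, with an edgeR quasi-likelihood adjusted p of 1. It called 1 gene (0.00784%), LOC102156855, a long noncoding RNA on chromosome X, which read 82.7 to 265 CPM in all 12 samples labeled female and 0 to 2.46 CPM in all 13 labeled male. DV200 was 75.4 to 84.4 in the female and 70.2 to 78.1 in the male tumors, and no male was intact. The part of RNA quality in the QRFPR difference was not tested.

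No difference by sex was detected for GCGR. Its mean on the log2(CPM + 1) scale was 8.26 ± 0.29 (SD, n = 5) in female and 8.00 ± 0.99 (SD, n = 6) in male tumors (difference 0.26, exact permutation p = 0.861, adjusted p = 0.861), and -0.14 without AGASAC 11. In edgeR over all genes its log2FC was 0.08 with a 95% interval of -0.71 to 0.87.

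No relation of either receptor with DV200 or the age of the dog passed the test, adjusted over the 5 relations computed. For QRFPR, r was -0.43 with DV200 (permutation p = 0.192, rho = -0.36, permutation p = 0.272) and 0.41 with age (permutation p = 0.213, rho = 0.46, permutation p = 0.161). For GCGR, r was 0.58 with DV200 (permutation p = 0.116, rho = 0.52, permutation p = 0.107) and 0.40 with age (permutation p = 0.219, rho = 0.26, permutation p = 0.436). The r of GCGR with DV200 rested on single tumors, at 0.07 without AGASAC 11 and 0.76 without AGASAC 1 (adjusted permutation p = 0.105), and that of GCGR with age was 0.17 without AGASAC 11. Without the 2 farthest tumors the 4 values became -0.44, 0.09, 0.31 and 0.59, and the smallest adjusted p was 0.274 for r and 0.402 for rho.

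Both receptors were read in all 4 metastases, which were compared with the primary tumor of the same dog. QRFPR went from 458 to 584 CPM in dog 1, from 2189 to 1496 in dog 2, from 691 to 1323 in dog 3 and from 320 to 68.4 in dog 4. It was higher in 2 of 4 metastases and lower in the other two, and the metastasis of dog 4 held 0.214 of its primary level. The paired difference was -0.37 ± 1.37 on the log2(CPM + 1) scale (SD, n = 4, two-sided exact sign-flip permutation p = 0.750, where 4 dogs cannot go below 0.125). The 2 male metastases were above the 2 female ones, as were the primary tumors of the same 4 dogs. The order in metastases is thus no separate observation of the sex difference.

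GCGR differed less between the samples of a dog. It went from 299 to 263 CPM in dog 1, from 336 to 276 in dog 2, from 295 to 408 in dog 3 and from 349 to 384 in dog 4. The paired difference was 0.04 ± 0.34 (SD, n = 4, exact sign-flip permutation p = 0.875), and it was higher in 2 of 4 metastases.

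**Figure D3:**
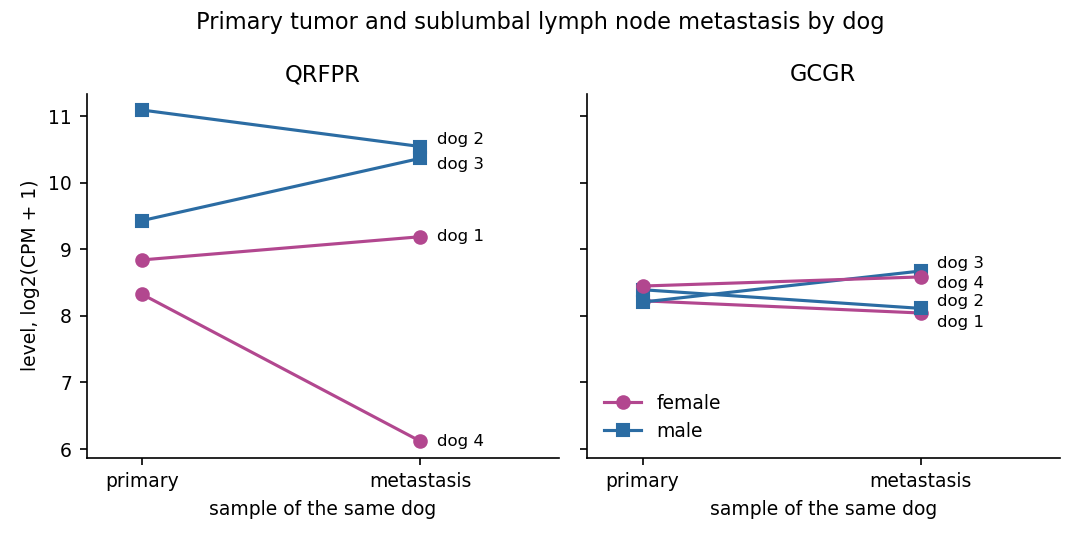
QRFPR (left) and GCGR (right) in the primary tumor and the sublumbal lymph node metastasis of the same 4 dogs on the log2(CPM + 1) scale, with circles for female and squares for male dogs. The QRFPR lines share no direction and dog 4 goes from 320 to 68.4 CPM, whereas all 8 GCGR points lie between 263 and 408 CPM.

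Over all genes, edgeR's quasi-likelihood test called 0 of 12629 genes (0%) between metastases and the primary tumors of the same 4 dogs, with 145 genes at an unadjusted p under 0.05. QRFPR had a log2FC of -0.07 (SE 0.87, 95% interval -2.04 to 1.89, adjusted p = 1) and GCGR of 0.06 (SE 0.22, 95% interval -0.44 to 0.55, adjusted p = 1). With the dog as a block the values were -0.33 (SE 0.48, 95% interval -1.46 to 0.80) and 0.03 (SE 0.17, 95% interval -0.37 to 0.44), and 1 gene (0.00792%), the skeletal muscle actin ACTA1, was called at a log2FC of -8.59 (SE 0.30, edgeR adjusted p = 0.00104). DESeq2 called 5 genes, of which ACTA1, CKM, MYL1 and MYLPF, all skeletal muscle genes, were lower and SPOCK2 higher in metastases.

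Within the pairs, markers of other cell types moved as well. Skeletal muscle markers were lower in the metastasis of 4 of 4 dogs, with sums of 9.78 to 355 CPM in the 4 primary tumors and 0.324 to 1.93 in the metastases. T cell markers were higher in 4 of 4 (25.0 to 39.9, 28.4 to 44.3, 21.1 to 63.0 and 41.4 to 44.4 CPM in dogs 1 to 4), and so were lymph node stroma markers (5.73 to 8.11, 10.1 to 10.9, 2.37 to 18.0 and 12.2 to 20.4 CPM). B cell markers were higher in 3 of 4, plasma cell markers in 2 of 4 and glandular epithelium markers in 3 of 4. In bulk samples, fewer cells of a type and less RNA per cell cannot be told apart. The part of these cell types in the receptor values was not tested.

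Primary tumors with a sampled metastasis (AGASAC 1 to 4) were also set against those without (AGASAC 5 to 11). QRFPR differed by -0.69 (9.43 ± 1.203, n = 4, against 10.11 ± 1.48, n = 7, exact permutation p = 0.458, adjusted p = 0.861) and GCGR by 0.31 (8.32 ± 0.12 against 8.01 ± 0.92, exact permutation p = 0.703, adjusted p = 0.861) on the log2(CPM + 1) scale (mean ± SD). Leaving out 1 tumor moved the QRFPR difference from -1.24 (without AGASAC 2) to -0.32 (without AGASAC 4), none of them past the threshold. All 7 tumors without a sampled metastasis belonged to 1 series of raw file names, and of the other 4 tumors 3 belonged to another and 1 had none given, so the series and this split cannot be told apart.

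Cell types in which these receptors are known were looked for in the same samples. Of 11 hepatocyte markers, 8 were in the table, and they summed to 8.17 to 42.3 CPM in HGA, 11.7 to 184 in primary AGASAC and 18.8 to 147 in metastases. Kidney tubule markers (3 of 6 in the table) reached 4.24 CPM in HGA, 17.6 in primary AGASAC and 0.649 in metastases. Neuroendocrine and islet markers (6 of 9) summed to 0.424 to 17.2, 5.04 to 138 and 2.60 to 40.9 CPM. CHGB was at 0 in all primary AGASAC, NEUROD1 in all HGA, and NEUROD1 and SST in all metastases. The 1 marker of this list that could be tested was called lower in HGA (log2FC -4.08). Adipocyte markers summed to 37.8 to 174, 6.54 to 410 and 7.72 to 87.5 CPM. Smooth muscle markers summed to 55.1 to 202, 29.8 to 256 and 26.9 to 443 CPM. Set against the level of a receptor in the same primary tumor, the kidney sum was below both receptors in all 11. The adipocyte sum reached or exceeded QRFPR in AGASAC 5 and GCGR in AGASAC 5 (238 CPM) and AGASAC 11 (410 CPM). The hepatocyte, neuroendocrine and smooth muscle sums exceeded GCGR in AGASAC 11, the skeletal muscle sum exceeded GCGR in AGASAC 2 and 5, and both muscle sums exceeded QRFPR in AGASAC 5. In the metastasis of dog 4, QRFPR (68.4 CPM) was exceeded by the hepatocyte (147), plasma cell (103), smooth muscle (96.2) and adipocyte (87.5) sums. In that of dog 2 the smooth muscle sum (443 CPM) exceeded GCGR (276 CPM). AGASAC 5, with the lowest QRFPR, and AGASAC 11, with the lowest GCGR, had the highest adipocyte sums of the primary tumors. AGASAC 11 nevertheless had QRFPR at 1279 CPM. AGASAC 6 had GCGR at 390 CPM beside an adipocyte sum of 211 CPM. The part of other cell types in the receptor values was not tested.

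Genes that could feed or carry the signal of these receptors were then examined in HGA versus AGASAC. Over all genes edgeR called 3032 of 12070 (25.1%) at a Benjamini-Yekutieli adjusted p of 0.05 or less and a log2FC of at least 1 in size, 1523 higher (12.6%) and 1509 lower (12.5%) in HGA. Of 140 genes in 7 lists covering ligands to targets, 118 were in the table, 65 could be tested and 24 were called, 5 higher and 19 lower in HGA, with a median log2FC of -0.65 against -0.03 for all genes. Scaling by library size alone moved the median of all genes by -0.30 to -0.33. The calls then split to 1053 higher and 2156 lower, with 4 higher and 24 lower in the lists. Without the filter on low counts all 118 list genes were tested, and 11 were called higher and 21 lower in HGA. Over all genes that fit called 1910 higher and 2041 lower. DESeq2 gave 11 higher and 22 lower in the lists. The lean of the lists to lower in HGA thus depended in part on the filter.

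The ligands of both receptors were nearly without data. QRFP and GCG, which encode the ligands, were not listed under those symbols and were not analysed here. In the RFamide and related class A list, 16 of 27 genes were in the table and 2 could be tested. HCRT, the orexin precursor, was higher in HGA (11.4 ± 7.46 CPM, n = 10, against 1.54 ± 2.04, n = 11, SD, log2FC 2.88, SE 0.69, edgeR adjusted p = 0.0137), and the cholecystokinin receptor CCKBR was not called (log2FC -1.38, SE 0.55). NPY, an abundant neuropeptide, reached the count cutoff in too few samples to be tested. Its median was 6.06 CPM in HGA and 0 in primary AGASAC. It was not low in every HGA, since HGA 4 read 4343 CPM against 0 to 79.8 in the other HGA.

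In the glucagon and class B receptor list, 17 of 23 genes were in the table, and 3 could be tested. VIPR1, a receptor of vasoactive intestinal peptide, was lower in HGA, with a median of 1.18 CPM (0 to 4.93) against 10.2 (1.03 to 89.2) in primary AGASAC (log2FC -3.85, SE 0.77, edgeR adjusted p = 0.00250). RAMP2, a receptor activity-modifying protein, was higher in HGA (28.5 ± 15.4 CPM, n = 10, against 8.27 ± 3.96, n = 11, SD, log2FC 1.81, SE 0.35, edgeR adjusted p = 0.00140), and its partner CALCRL was not called (log2FC -0.74, SE 0.71). GLP1R, the receptor of the sister hormone GLP-1, was untested for low counts, with 0 to 235 CPM (median 15.5) in HGA and 0 to 6.37 (median 1.15) in primary AGASAC.

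Of the 9 genes that mature or degrade peptide hormones, all could be tested and 4 were called, all lower in HGA. PCSK1, a prohormone convertase, had a log2FC of -5.35 (SE 1.43, edgeR adjusted p = 0.0355), and its median was 2.19 CPM in HGA and 8.99 in primary AGASAC, where it ranged from 0 to 1646. Its inhibitor PCSK1N differed by -3.24 (SE 0.70, adjusted p = 0.00563). SCG5, a chaperone of prohormone convertase, differed by -2.28 (SE 0.40, adjusted p = 0.000620). DPP4, the peptidase that trims incretin peptides, differed by -3.18 (SE 0.81, adjusted p = 0.0235). The remaining 5, among them the furin gene FURIN (log2FC 0.10, SE 0.24), were not called.

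Of the G protein alpha subunits, 1 of 8 tested was called. GNAQ, which carries the calcium signal of Gq-coupled receptors, was 3.38 ± 1.87 CPM in HGA (n = 10) and 32.7 ± 12.5 in primary AGASAC (n = 11, SD), without overlap between the groups (log2FC -3.21, SE 0.33, edgeR adjusted p = 3.22e-07). GNAS, which encodes the Gs subunit that GCGR uses, was high in both tumors, at 565 to 1159 CPM in HGA and 649 to 1112 in primary AGASAC (log2FC -0.12, SE 0.15, adjusted p = 1). GNA11, the close relative of GNAQ, differed by -0.07 (SE 0.19, adjusted p = 1).

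Of the second messenger genes, 11 of 28 tested were called, 8 lower and 3 higher in HGA. PLCB4, a Gq-activated phospholipase, differed by a log2FC of -5.42 (SE 0.59, edgeR adjusted p = 8.68e-07), and ITPR1, a calcium release channel, by -4.45 (SE 0.41, adjusted p = 6.62e-08). The phosphodiesterases PDE3B and PDE7A, which break down cAMP, differed by -5.09 (SE 0.76, adjusted p = 7.06e-05) and -4.29 (SE 0.61, adjusted p = 3.43e-05). The other 2 members of the calcium channel family went the opposite way, ITPR2 by 2.45 (SE 0.26, adjusted p = 5.34e-07) and ITPR3 by 1.17 (SE 0.25, adjusted p = 0.00499), so ITPR1 read 5.02 ± 1.92 CPM in HGA and 116 ± 91.0 in primary AGASAC where ITPR2 read 134 ± 58.4 and 25.2 ± 10.1 (SD, n = 10 and n = 11).

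Receptor desensitization gave 1 call among 7 genes tested, the arrestin ARRB1, at 30.4 ± 14.1 CPM in HGA and 127 ± 98.4 in primary AGASAC (SD, n = 10 and n = 11, log2FC -2.02, SE 0.42, edgeR adjusted p = 0.00319). Of the metabolic genes that glucagon is known to regulate in liver, 15 of 18 were in the table, 8 could be tested and 4 were called, all lower in HGA. The amino acid transporter SLC38A4 was at 0 in 7 of 10 HGA and at 83.8 ± 74.0 CPM in primary AGASAC (SD, n = 11, edgeR adjusted p = 1.63e-06). CPT1A, the gatekeeper of mitochondrial fatty acid oxidation, differed by -2.67 (SE 0.42, adjusted p = 0.000165), the nuclear receptor NR4A1 by -1.78 (SE 0.47, adjusted p = 0.0292) and the amino acid transporter SLC38A2 by -1.43 (SE 0.26, adjusted p = 0.00103). The coactivator PPARGC1A was at 0 in all 10 HGA and at 0.603 to 16.6 CPM in primary AGASAC, too low to test. The gluconeogenic enzyme gene PCK1 had a median of 5.92 CPM in HGA and 0 in primary AGASAC, also too low to test.

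**Figure D4:**
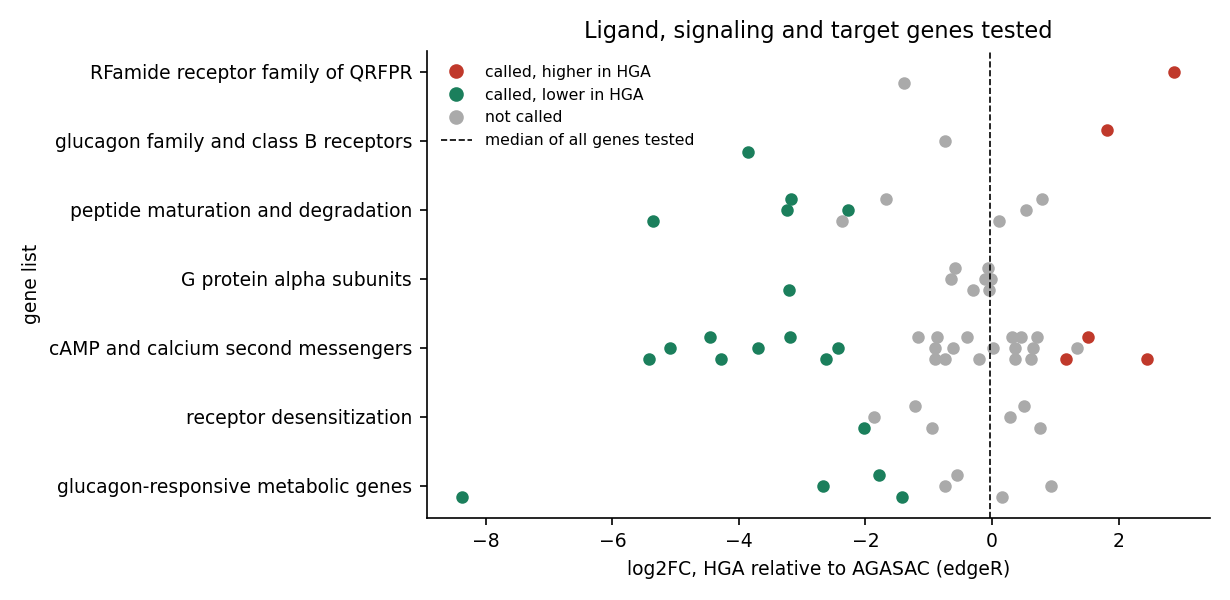
log2FC of HGA relative to primary AGASAC (edgeR) for the 65 tested genes of the 7 lists, 1 point per gene, colored by call, with a dashed line at the median of all 12070 genes (-0.03). Green points (lower in HGA) number 19 and red points (higher in HGA) 5, and SLC38A4 lies farthest left.

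The genes whose levels followed each receptor most closely across the 11 primary tumors were ranked by Pearson's r on the log2(CPM + 1) scale among 10629 genes, as a description. For QRFPR these were the phospholipid-binding annexin ANXA5 (r = 0.89), JPT2 (0.88), the transcription factor SOX4 (0.88), the galactosyltransferase B4GALT3 (0.87) and the histone methyltransferase SUV39H1 (0.86). For GCGR they were VTA1 (0.92), C5H1orf159 (0.91), the G protein regulator RGS10 (0.89), the leukocyte integrin ITGB2 (0.89) and the protease CTSS (0.89). Without AGASAC 11 the values for GCGR were 0.84, 0.47, 0.63, 0.76 and 0.85, so the order rested in part on that tumor, while those for QRFPR stayed between 0.86 and 0.90.

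ANXA5, first of 10629 genes in likeness to QRFPR, is also the nearest listed neighbor of QRFPR on chromosome 19 in the RefSeq annotation of another dog assembly. Since ANXA5 was singled out by this ranking, its likeness is a description with no test (r = 0.89, rho = 0.88, and r = 0.73 without the 2 tumors farthest from the median). Within the 6 male tumors r was 0.56 and rho 0.49, and within the 7 tumors of the larger series of raw file names r was 0.88 and rho 0.82. In the 5 female tumors, too few for a correlation here, QRFPR at 141, 320, 458, 628 and 1408 CPM went with ANXA5 at 117, 264, 360, 355 and 577 CPM, the same order but for AGASAC 1 and 6. In the 4 pairs, ANXA5 moved by -0.14, -0.05, 0.19 and -0.51 where QRFPR moved by 0.35, -0.55, 0.94 and -2.21 on the log2(CPM + 1) scale. Unlike QRFPR it was well expressed in HGA, at 319 ± 195 CPM (n = 10) against 556 ± 379 in primary AGASAC (n = 11, SD, log2FC -0.76, SE 0.40, edgeR adjusted p = 1).

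Of the other 6 neighbors of both receptors in the table, none passed a permutation test of r adjusted over 7. Next to QRFPR, TNIP3 and NDNF reached at most 12.1 and 10.4 CPM in primary tumors and were too low for the edgeR test, and SMIM43 was not analysed here. Around GCGR on chromosome 9, r with GCGR was 0.00 for PPP1R27, -0.03 for MCRIP1, 0.06 for SLC25A10 and -0.54 for MRPL12 (smallest adjusted permutation p among the 6 of 0.230). PPP1R27 and SLC25A10 were themselves lower in HGA (log2FC -3.94, SE 0.71, and -2.63, SE 0.27, edgeR adjusted p = 0.000692 and 2.66e-07), and MCRIP1 (log2FC -0.99) and MRPL12 (0.46) were not called.

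GPR149, which shared 0 counts in all HGA, stood near the opposite end of the ranking for QRFPR (r = -0.87, rank 10626 of 10629, singled out after its values were seen). It read 327, 540, 540, 208 and 4.36 CPM in female tumors 1, 4, 5, 6 and 8 and 0 in all 6 male tumors. AGASAC 8, the female with the least GPR149, was the female with the most QRFPR. In metastases GPR149 read 358 CPM in dog 1, 0 in dog 2, 0.643 in dog 3 and 2.56 in dog 4, so the female dog 4 went from 540 to 2.56 CPM together with its fall in QRFPR. Between female and male primary tumors edgeR gave GPR149 a log2FC of 13.04 that depends on the prior count because all males were at 0, with an adjusted p of 1, or 0.00886 without AGASAC 8, and DESeq2 gave an adjusted p of 4.46e-12.

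**Figure D5:**
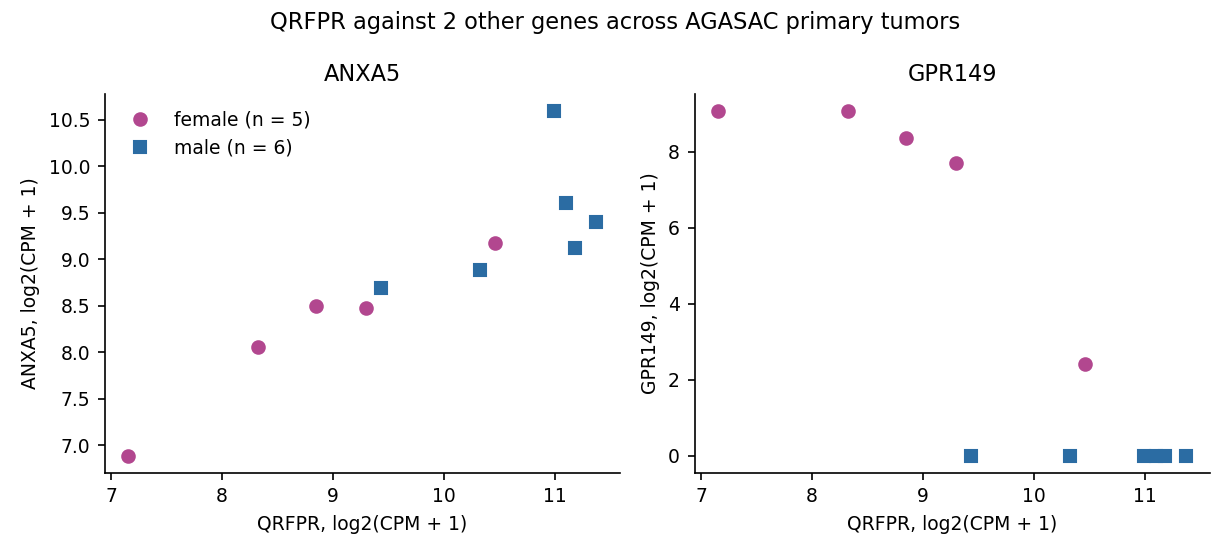
QRFPR (horizontal) against ANXA5 (left) and GPR149 (right) in the 11 primary AGASAC, all on the log2(CPM + 1) scale, with circles for female (n = 5) and squares for male dogs (n = 6). ANXA5 rises with QRFPR (r = 0.89), and GPR149 is at 0 in all males and at 4.36 to 540 CPM in females.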

How the data were processed

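The authors trimmed QuantSeq 3′ reads with Cutadapt, aligned them to CanFam3.1 with STAR and deposited raw counts per gene from featureCounts, run again with genes extended by 2 kb at the 3′ end for unassigned reads, sharing multi-mapped reads over their locations (versions are not given in the sources used here). The authors also deposited size-factor normalized signal columns and their own DESeq2 comparison (log2 fold changes and p-values), which were not used. No per-sample count column was left out (0) and 0 features lacked a gene name.

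Both receptors and all gene lists were chosen with earlier results of these data known. Counts were analysed with edgeR 4.0.16 in R 4.3.3 (filterByExpr with a minimum count of 10 and a minimum total of 15, TMM, glmQLFTest, Benjamini-Yekutieli adjusted p of 0.05 or less and log2FC of at least 1 in size), for 10 HGA against 11 primary AGASAC, and for 4 metastases against the primary tumors of the same dogs. Both were tested on simulated data. DESeq2 1.42.0 was an alternative. Single values were compared on log2(CPM + 1) by exact permutation, and correlations by 100000 permutations, two-sided. No label states separate handling of replicates beyond different dogs, so p-values measure the spread between these samples. Limits at 0 use 3 counts and cover counting error only. CPM precision follows the library totals given above.

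Named genes were both receptors, up to 4 called genes with the largest log2FC of each list, the 5 genes most like each receptor (mean of at least 5 CPM), the 5 highest genes at 0 in all HGA and the 2 nearest protein coding genes on each side. Others (GLP1R, ADCYAP1R1, NPY, PPARGC1A, PCK1, CCKBR, CALCRL, GNAS, GNA11, FURIN, ITPR2, ITPR3 and genes of whole-table calls) were named after their values were seen. Neighbors came from RefSeq (UU_Cfam_GSD_1.0), whose coordinates were not used. Same-numbered metastases and primary tumors come from 1 dog, and their deviations from the group means correlated at 0.43 to 0.73 in 4 of 4 dogs. Extraction batch and file-name series (the numbering style of the raw files) come from the study's sample list.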

Additional observations from a re-analysis of the deposited data

Results flagged for a closer look

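A sample far from the rest of its group was looked for in 75 groups of 4 to 10 samples, and 11 had one. The limit used gives about 1 in 20 for normally distributed values. CPM of many of these genes was skewed and the same samples recur across genes, so 11 of 75 cannot be read as an excess. For the receptors, GCGR in AGASAC 11 (63.7 CPM) lay far below the other 5 male primary tumors (295 to 401). In HGA 4, a male, NPY read 4343 CPM against 0 to 79.8 in the other HGA, GLP1R 235 against 0 to 113, and PCSK1 25.2 against 0 to 10.8. In HGA, PDE3B also read 23.0 CPM in HGA 8 against 0.848 to 9.94, and SUV39H1 9.46 in HGA 10 against 0 to 4.52. In metastases, dog 2 stood high in PCSK1N (35.3 against 1.30 to 3.51 CPM), PDE3B (126.6 against 8.36 to 11.2) and RGS10 (37.7 against 12.1 to 13.8). The metastasis of dog 1 stood high in GPR149 (358 against 0 to 2.56 CPM), and that of dog 3 low in B3GALT2 (16.4 against 340 to 355).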

How the results depend on the processing

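Of 294 values recomputed under an alternative, 273 counted as unchanged and 12 changed sign. The 294 include numbers of genes called and fold limits against HGA, which have no direction. The total is thus no measure of stability for the receptors. Between metastasis and primary tumor, DESeq2 called 5 genes and the replicate block (the dog) 1 where edgeR called 0. Leaving out 1 library without the block gave 0, and leaving out 1 dog (both its libraries) with the block gave 0 to 1. The sign was not stable for values that were not called. Leaving out 1 sample moved the metastasis-minus-primary log2FC from -0.49 to 0.84 for QRFPR and from -0.054 to 0.16 for GCGR. With the block, leaving out 1 dog moved them from -0.78 to 0.25 (without dog 4) and from -0.11 (without dog 3) to 0.13. The correlation of QRFPR with GCGR ran from -0.041 to 0.50, the GCGR difference by sampled metastasis from -0.019 to 0.42 and by sex from -0.14 to 0.39. GCGR with DV200 ran from 0.07 to 0.76 and the QRFPR difference by sampled metastasis from -1.24 to -0.32. The QRFPR sex difference ran from -2.33 to -1.50 with 1 tumor left out (adjusted exact permutation p 0.0190 to 0.127). It passed the threshold only without AGASAC 8 and among neutered dogs (-2.30), a subset that also leaves out AGASAC 8. It had an adjusted p of 1 in edgeR over all genes. That sex fit called 1 gene, 4 without AGASAC 8 and 13 with DESeq2, QRFPR in none of them. HGA versus AGASAC gave 2543 (replicate block) to 4494 calls (DESeq2), and the 7 lists 17 to 33. HGA and AGASAC of the same number share only a number, since their deviations correlated at -0.06 to 0.04 and 0 of 10 fitted best with their own. Between metastasis and primary tumor, neither receptor was called with or without the dog as a block. Depth limits HGA at 0.543 to 1.84 CPM per library.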
